A study of Mus musculus with 18 samples.

Results

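The regions described here are 126 stretches of chromatin that were open in mouse small cell lung cancer (SCLC) of the TKO genotype and closed in both CARM1 knockout and NFIB mutant tumors. They lie away from gene starts. They were selected on their ATAC-seq values out of 111664 peaks, of which 109286 lie on chromosomes 1 to 19. A region was a member when it had at least 4 CPM (reads per 1000000 reads counted on peaks) in all 3 TKO libraries and under 0.5 CPM in all 6 mutant libraries. It also had to lie more than 1000 bp from every annotated gene start. Of 91065 distal autosomal peaks, 9014 had at least 4 CPM in every TKO library, and the members were 1.4% of these. Since these values chose the regions, the loss of accessibility is given as a description only. The RNA-seq counts of neighbouring genes are the readout that the selection did not use. The paper states that both assays came from the same biopsies, so this readout is not independent of the tumors that chose the regions.

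ATAC-seq reports open chromatin as reads from DNA that a transposase could cut. Distal open regions are often enhancers, which bind transcription factors and act on gene promoters that can be far away. NFIB belongs to the nuclear factor I (NFI) family, whose members bind the palindrome TTGGC, 5 bases of any kind, then GCCAA, and also single copies of one side of it. In SCLC, a neuroendocrine lung tumor with many neuronal genes, NFIB is known for keeping distal chromatin open. CARM1 is a methyltransferase that places methyl groups on arginines of other proteins, NFIB among them.

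All animals carried floxed Rb1, Trp53 and a further retinoblastoma family gene, given as Rbl1 in the sample labels and as Rbl2 in parts of the study's text, which together make up TKO. CARM1 knockout animals (TKO;Carm1KO) carried floxed Carm1 as well, and NFIB mutant animals (TKO;Nfib R388K) carried a knock-in allele in which the arginine of NFIB that CARM1 methylates was changed to lysine. Cre was given to the lungs as an adenovirus at 8 weeks of age, and tumor cells were taken 28 weeks later from 3 independent animals of each genotype. According to the methods, sorting used a tdTomato reporter, which any lung cell reached by Cre would also carry. Carm1 and the TKO genes were lost only in such cells, whereas the Nfib allele is present throughout the animal. Each genotype had 3 ATAC-seq and 3 RNA-seq libraries.

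Reads counted on peaks ranged from 26917178 to 47653979 in the ATAC-seq libraries, and RNA-seq counts from 15848866 to 20915057. Carm1 RNA did not pass the test in CARM1 knockout tumors (edgeR adjusted p = 0.41), with 97.7, 103 and 44.5 CPM in TKO and 63.4, 79.1 and 50.8 CPM in CARM1 knockout libraries. Counts over the whole gene do not check a deletion of part of it. Nfib fell from 420 to 580 CPM in TKO to 74.5, 216 and 87.2 CPM in CARM1 knockout and to 83.3 to 105 CPM in NFIB mutant libraries (edgeR adjusted p = 0.00799 and 0.00325). The 14 neuroendocrine markers summed to between 1819 and 4022 CPM in TKO. In the mutants they summed to 34.1 to 189 CPM except in CARM1 knockout library 3, which had 2033 CPM. The 6 fibroblast markers summed to 11.2 to 63.4 CPM in TKO and to 9479 to 25790 CPM in the mutants, and the 12 leukocyte markers to 3.63 to 57.4 against 81.7 to 2783 CPM. Of the 12 leukocyte markers, 5 to 7 were at 0 in each TKO library and 3 to 5 in each mutant library. The 10 lung epithelium markers summed to 14.2 to 45.9 CPM in TKO. They reached 422 CPM in CARM1 knockout library 3 and 2212 CPM in NFIB mutant library 1. The other mutant libraries had 0.89 to 86.2 CPM of them. The 6 endothelium markers summed to 5.86 to 21.3 CPM in TKO and to 1.82 to 73.9 CPM in the mutants. The part of the cells behind these markers in the results below was not tested. In bulk samples, fewer cells with a region open and less opening per cell cannot be told apart. TKO libraries 1 and 2 held 9.26 and 9.07% of their ATAC-seq reads within 1 Mb of Mycn, against 0.071 to 0.149% in the other 7, and no member lay in that window.

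The DNA of 3 of the 4 members with the highest signal in their lowest TKO library is shown first, since in these every TKO library was far above the limit of 4 CPM. The 300 bp around the middle of each peak are written in GRCm38 (RefSeq) with capitals for the NFI single site TTGGCA and the E-box CAGCTG, on either strand.
Region near Dhx35, chr2:159438960-159439259, plus strand: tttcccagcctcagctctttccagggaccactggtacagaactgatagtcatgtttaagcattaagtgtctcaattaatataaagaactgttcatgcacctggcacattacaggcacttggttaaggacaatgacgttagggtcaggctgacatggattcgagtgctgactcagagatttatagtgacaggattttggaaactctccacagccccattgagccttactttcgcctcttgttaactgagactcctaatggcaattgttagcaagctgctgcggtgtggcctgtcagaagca
Region near Pdzrn3, chr6:101883049-101883348, plus strand: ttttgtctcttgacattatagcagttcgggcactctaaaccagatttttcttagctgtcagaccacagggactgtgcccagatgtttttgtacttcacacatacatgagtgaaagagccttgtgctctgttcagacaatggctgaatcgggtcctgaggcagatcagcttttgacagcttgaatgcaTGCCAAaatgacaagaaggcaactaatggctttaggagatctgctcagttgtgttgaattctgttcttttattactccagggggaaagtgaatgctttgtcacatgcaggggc
Region near Btg1, chr10:96397908-96398207, plus strand: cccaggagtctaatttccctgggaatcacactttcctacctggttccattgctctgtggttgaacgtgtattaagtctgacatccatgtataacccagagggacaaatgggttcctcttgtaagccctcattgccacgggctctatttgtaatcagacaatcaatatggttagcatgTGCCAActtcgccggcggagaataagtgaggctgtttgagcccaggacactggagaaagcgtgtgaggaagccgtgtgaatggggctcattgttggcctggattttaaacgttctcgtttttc
These regions are all intergenic. Those near Pdzrn3 and Btg1 hold 1 NFI single site each, and the one near Dhx35 holds neither.

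No member held the complete NFI palindrome, which was also rare in other distal peaks open in TKO, at 16 of 8888 (0.18%). At so low a share, 0 of 126 members does not set them apart from those peaks. NFI single sites were common, and 15 members had 2 or more of them in 300 bp. The next sequences are the highest of those 15, after their motif counts were seen, with the same capitals.
Region near Pcdh18, chr3:50014483-50014782, plus strand: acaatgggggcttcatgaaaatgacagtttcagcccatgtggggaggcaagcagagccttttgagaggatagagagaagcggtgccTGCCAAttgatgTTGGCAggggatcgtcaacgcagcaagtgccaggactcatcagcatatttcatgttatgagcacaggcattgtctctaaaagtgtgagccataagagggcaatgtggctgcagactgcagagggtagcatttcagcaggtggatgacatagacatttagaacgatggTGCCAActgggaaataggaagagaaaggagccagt
Region near Cdca7l, chr12:117795547-117795846, plus strand: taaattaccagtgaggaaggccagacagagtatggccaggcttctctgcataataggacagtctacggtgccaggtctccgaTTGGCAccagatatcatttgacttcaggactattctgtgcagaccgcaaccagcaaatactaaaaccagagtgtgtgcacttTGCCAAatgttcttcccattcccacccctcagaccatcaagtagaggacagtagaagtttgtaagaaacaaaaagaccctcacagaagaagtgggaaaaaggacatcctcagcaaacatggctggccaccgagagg
Region near Ntm, chr9:29242631-29242930, plus strand: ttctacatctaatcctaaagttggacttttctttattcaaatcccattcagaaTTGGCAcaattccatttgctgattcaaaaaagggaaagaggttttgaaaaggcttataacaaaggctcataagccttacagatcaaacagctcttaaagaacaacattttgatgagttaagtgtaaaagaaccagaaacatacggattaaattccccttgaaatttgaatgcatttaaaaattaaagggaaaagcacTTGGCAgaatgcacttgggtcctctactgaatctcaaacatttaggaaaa
Region near Robo1, chr16:73105507-73105806, plus strand: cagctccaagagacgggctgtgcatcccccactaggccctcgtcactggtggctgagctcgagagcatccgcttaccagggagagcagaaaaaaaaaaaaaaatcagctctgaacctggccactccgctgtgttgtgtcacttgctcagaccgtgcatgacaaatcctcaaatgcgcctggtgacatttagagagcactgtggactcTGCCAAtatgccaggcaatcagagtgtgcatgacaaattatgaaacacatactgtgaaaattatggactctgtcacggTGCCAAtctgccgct
The region near Pcdh18 lies in an intron of Slc7a11 and holds 3 NFI single sites. The other 3 regions hold 2 NFI single sites each, and none of the 4 holds the E-box CAGCTG.

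In the TKO libraries the members had medians of 7.15, 9.07 and 6.11 CPM, with a range over all 3 libraries of 4.01 to 39.1 CPM. In reads these medians are 299, 432 and 164. The CARM1 knockout libraries had medians of 0.256, 0.224 and 0.256 CPM and the NFIB mutant libraries of 0.309, 0.271 and 0.19 CPM, which are 8 to 10 reads per region. Between 7 and 18 members had 3 reads or fewer in a given mutant library, so that the residual signal of a single region is poorly measured. Intervals on such counts would cover counting error only and leave out the spread between animals. Summed over all members, TKO libraries had 1150, 1330 and 909 CPM and mutant libraries 24.5 to 37.3 CPM. The TKO mean was between 13 and 109.5 times the mean of the 6 mutant libraries, with a median of 32.4.

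**Figure D1:**
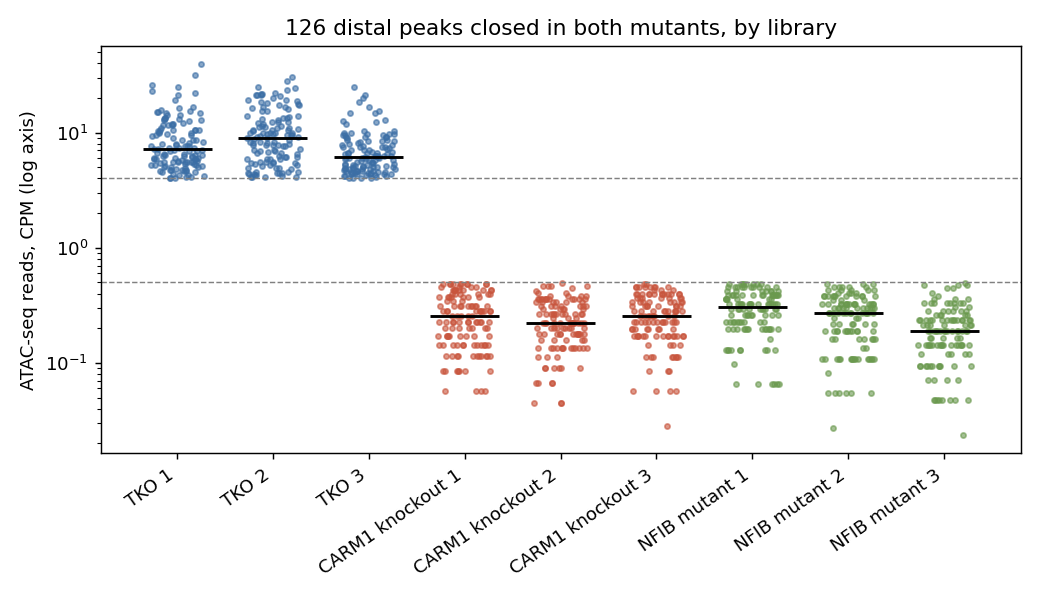
ATAC-seq CPM (log axis) of the 126 members in each library, 1 point per member, with the median as a black bar and dashed lines at the limits of 4 and 0.5 CPM that chose them. The 12 values of 0 among the 756 mutant values cannot be drawn on a log axis. The medians of 6.11 to 9.07 CPM in TKO and 0.19 to 0.309 CPM in the mutants follow from the selection.

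The members were not alike within TKO. The highest TKO library exceeded the lowest by a median of 1.81 times and by up to 5.52 times, and 17 members differed by more than 3 times. TKO library 3 was the lowest in 67 of the 126 and TKO library 2 the highest in 63. The rule held both mutants under 0.5 CPM at these regions, so that their closeness to each other follows from the selection. Within that limit the CARM1 knockout mean was above the NFIB mutant mean in 64 members and below it in 62. CARM1 knockout library 3 kept neuroendocrine RNA and an intermediate signal at neuroendocrine promoters. Over the promoter peaks of the 14 neuroendocrine markers it had 180 CPM, against 80.0 and 128 CPM in CARM1 knockout libraries 1 and 2, 53.0 to 70.6 CPM in NFIB mutant and 387 to 413 CPM in TKO libraries. At the members it had 32.8 CPM in sum, against 33.2 and 30.1 CPM in the other CARM1 knockout libraries, a value that the limit of 0.5 CPM holds down.

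The limits cut through a continuum. Just inside the lower limit were a region near 5330417H12Rik with 4.01 CPM in its lowest TKO library and one near Gpr139 with 4.04 CPM, and just outside it were regions near Mtus2 and Trim32 with 3.99 CPM each. The highest mutant library of the region near Ryr3 had 0.497 CPM, inside the limit, and that of the region near Ajap1 had 0.511 CPM, outside it, although its lowest TKO library had 11.5 CPM. In 62 of the 126 members the highest mutant library had at least 0.4 CPM, and in 60 the lowest TKO library had under 5 CPM. Applied without TKO library 3 the rule would give 602 regions, without TKO library 1 it would give 200 and without CARM1 knockout library 3 it would give 255. With CPM scaled by edgeR's TMM factors it would give 316.

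The region with the highest signal in its lowest TKO library was one near Nox3, with 24.9, 16.4 and 21.3 CPM in TKO libraries 1 to 3. It had 0.313, 0.358 and 0.227 CPM in CARM1 knockout and 0.163, 0.271 and 0.142 CPM in NFIB mutant libraries. It lay 343724 bp from the start of Nox3, an NADPH oxidase gene, with another member at a gap of 10251 bp. The region chr2:159438477-159439741, which lay 643670 bp from the helicase gene Dhx35, had 39.1, 21.2 and 15.3 CPM in TKO and 0.134 to 0.427 CPM in the mutants. The region chr6:101882699-101883698 near Pdzrn3 had 15.3, 21.5 and 14.9 CPM against 0.0948 to 0.325 CPM. The region chr10:96397246-96398869 near Btg1 had 12.9, 16.8 and 20.1 CPM against 0.228 to 0.454 CPM. TKO library 1 was the highest of the 3 at the first pair of regions, library 2 at the third and library 3 at the fourth.

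The next members by the same order were near Pik3c3, Pcdh18, Nrxn3, Sv2c, Plxna4 and Tmtc2. The region chr12:89180739-89181933, in an intron of Nrxn3, had 10.5, 13.8 and 24.8 CPM in TKO and 0.0948 to 0.37 CPM in the mutants. The region chr10:105638176-105639976 near Tmtc2 varied most among these, with 26.0, 28.2 and 9.7 CPM in TKO. The region near Pcdh18, chr3:50014272-50014993, varied least, with 11.8, 11 and 11.9 CPM in TKO against 0.0474 to 0.284 CPM in the mutants.

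Members lay far from gene starts, although many were inside genes. Their median distance to the nearest protein-coding gene start was 135512 bp, against 30630 bp for the 8888 other distal peaks open in TKO, 37887 bp for all distal peaks and 65404 bp for 995 distal peaks that opened in both mutants by the mirrored rule. Only 4 members lay within 10000 bp of such a start, 45 between 10000 and 100000 bp, and 77 further away, of which 20 were beyond 500000 bp. By the annotation, 65 lay in introns (51.6%), 58 between genes (46.0%) and 3 in exons (2.38%). The shares of other distal peaks open in TKO were 51.1, 37.9 and 11.1%. The members were shorter than those peaks, with a median of 984 bp against 1454 bp, and longer than all distal peaks, at 709 bp.

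**Figure D2:**
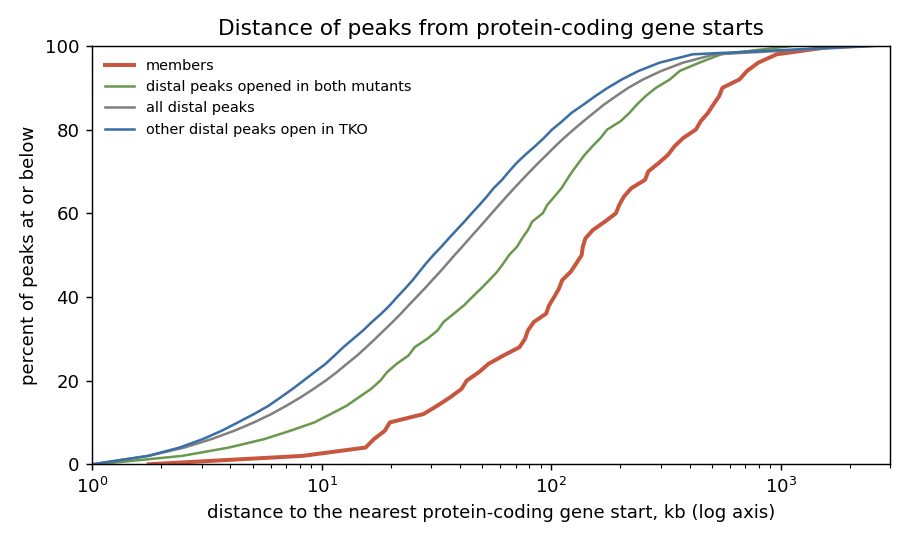
Cumulative percent of peaks (vertical axis) by distance to the nearest protein-coding gene start in kb (log axis), for the members and 3 comparison sets. The line of the members lies to the right of the others over most of the range, with medians of 136 kb for the members and 30.6 to 65.4 kb for the other sets.

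Some members were neighbours. The 126 members had 111 different nearest protein-coding genes, of which 10 were nearest to 2 or more members. Of the members, 5 had Nrxn3 as the nearest gene, spread over chr12:88800773-89263326, and all 5 lay in its introns. Myt1l and Robo1 were each the nearest gene of 3 members. The closest pairs were 9812 bp apart at Apba2 and 10251 bp apart near Nox3, whereas the median gap between members that follow each other on a chromosome was 8633304 bp. Chromosome 12 held 17 members (13.5%), although it holds 6.16% of the distal peaks open in TKO, and chromosome 11 held none, although it holds 7.4%. Chromosome 12 outside the Mycn window took 3.57 to 4.34% of the reads of TKO libraries and 2.44 to 3.31% of those of mutant libraries. The part of this in the number of members on chromosome 12 was not tested.

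Of the 16 motifs searched, the NFI single site was the most frequent in the members. The letters TTGGCA were present on either strand of the central 300 bp in 51 of 126 members (40.5%). They were present in 24.0% of other distal peaks open in TKO, in 19.5% of those that opened in both mutants and in 23.0% of all distal peaks. The E-box CAGCTG was present in 27.8% of members and 26.8% of other distal peaks open in TKO, and the NEUROD-type E-box CAGATG in 31.7 and 24.4%. Of the members, 12 held an NFI single site and a CAGCTG E-box (9.52%) and 52 held neither (41.3%).

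The SOX, homeodomain and NKX2 motifs were also more frequent in members than in other distal peaks open in TKO. The SOX motif CATTGTT was present in 11.9 against 4.58%, the homeodomain motif TAATTA in 13.5 against 6.41% and the NKX2 motif CACTTGA in 11.1 against 5.96%. The AP-1 motif TGANTCA, bound by FOS and JUN, was present in 12.7% of members and 10.1% of other distal peaks open in TKO, but in 50.2% of the peaks that opened in both mutants. The TEAD motif GGAATGT had shares of 2.38, 2.94 and 12.3% in the same sets, and the RUNX motif TGTGGTT of 6.35, 5.9 and 13.9%. The forkhead motif TGTTTAC was present in 2 members (1.59%), against 4.61% of other distal peaks open in TKO.

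For the remaining motifs the shares in members and in other distal peaks open in TKO were as follows. The GATA motif AGATAA had 15.1 against 10.8%, the octamer ATGCAAAT 2.38 against 1.28%, the RFX motif GTTGCCA 6.35 against 5.69% and the CTCF core AGGGGGC 7.94 against 7.76%. The letters of the RFX motif can overlap those of an NFI single site on the other strand. The CRE motif TGACGTCA was in no member and in 0.394% of the others. Base composition differed between the sets, with a median GC content of 46.8% in members, 52.7% in other distal peaks open in TKO and 43.3% in peaks that opened. Among peaks with 40 to 50% GC, the NFI single site was in 33 of 87 members (37.9%) and in 27.1% of 2761 other distal peaks open in TKO, the SOX motif in 12.6 against 6.85% and the homeodomain motif in 16.1 against 11.2%. A match of letters describes the sequence and not the binding of a factor.

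**Figure D3:**
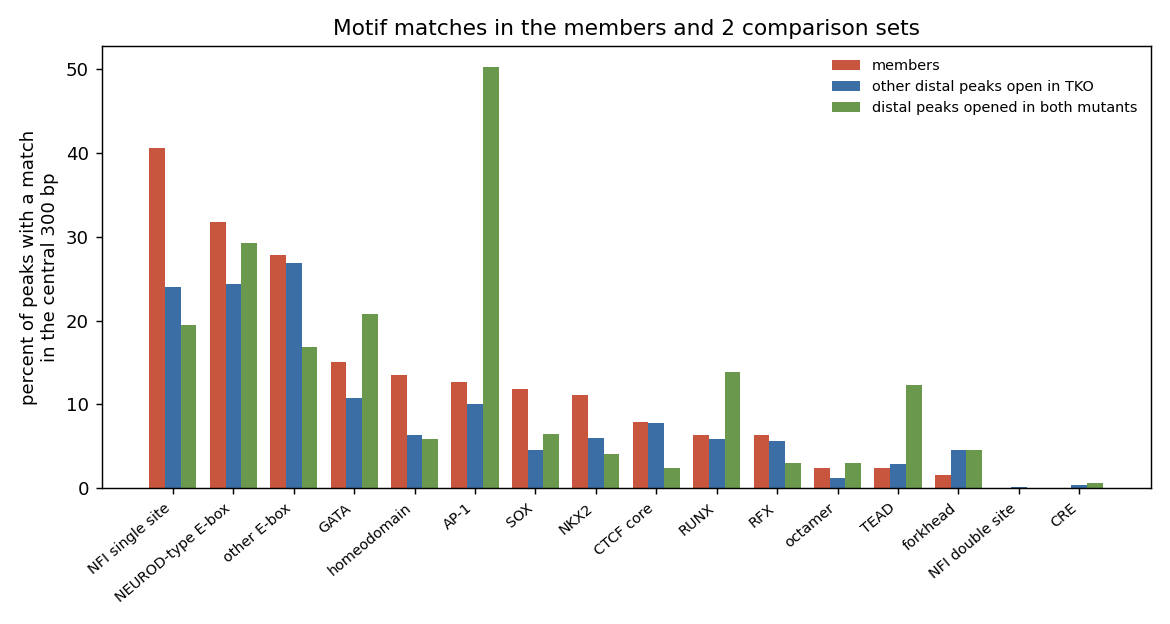
Percent of peaks with at least 1 match in the central 300 bp (bars from 0) for 16 motifs in the 126 members, 8888 other distal peaks open in TKO and 995 distal peaks opened in both mutants. The NFI single site leads in the members at 40.5% against 24.0 and 19.5%, and AP-1 leads in the opened peaks at 50.2%. The NFI double site is the complete palindrome, and the other E-box is CAGCTG.

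The peaks around the members were compared in the same way. Of 536 other peaks within 50000 bp of a member, 254 (47.4%) had every mutant library below every TKO library, whereas 19.1% of all peaks on chromosomes 1 to 19 did. A further 135 of the 536 (25.2%) had every mutant library above every TKO library, whereas 41.9% of all peaks on these chromosomes did. At the genes nearest to the members, 88 had a peak within 1000 bp of their start, and 32 of these peaks (36.4%) were lower in every mutant library, against 11.5% of the promoter peaks of all protein-coding genes. Another 15 (17.0%) were higher in every mutant library, against 24.2%. The promoter peak of Nrxn3 had 4.61, 8.29 and 7.54 CPM in TKO and 0.108 to 0.47 CPM in the mutants. Apba2, which encodes an adaptor of synaptic vesicle release, had 33.6, 32.3 and 36.3 CPM at its promoter in TKO, 6.5 CPM in CARM1 knockout library 3 and 0.806 to 2.11 CPM in the other mutant libraries. Neighbouring peaks come from the same libraries as the members, so these counts are not independent of the selection.

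In RNA-seq, genes nearest to the members were called lower in the mutants more often than higher. Of 111 nearest protein-coding genes, 91 had enough counts to be tested, and the other 20 had at most 50 counts in any library. In CARM1 knockout tumors 32 of the 91 were called lower (35.2%) and 12 higher (13.2%), where calls needed an edgeR adjusted p (Benjamini-Hochberg) under 0.1 and a log2 fold change of at least 0.8 in size. Over all 15514 genes tested the shares were 18.3% lower and 20.5% higher. In NFIB mutant tumors 44 were called lower (48.4%) and 11 higher (12.1%), against 23.5% and 22.3% of all genes. The median log2 fold change of the nearest genes was -0.93 in the CARM1 knockout and -1.39 in the NFIB mutant, and that of all genes was -0.03 and -0.05. The mutants share the TKO libraries as controls, so their calls are not independent of each other.

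Called lower in both mutants were 27 of the 91 nearest genes (29.7%) against 15.4% of all genes, and called higher in both were 11 (12.1%) against 17.9%. No nearest gene was called in opposite directions. In 41 of the 91 (45.1%) every mutant library lay below every TKO library, as in 23.3% of all genes, and in 12 (13.2%) every mutant library lay above, as in 22.3% of all genes. With 3 libraries against 3, an exact permutation test of a single gene could not give a p under 0.10. Of the calls, 20 of 32 lower in CARM1 knockout and 31 of 44 lower in NFIB mutant tumors held in each of 9 fits that left out 1 library, and 18 of the 27 genes lower in both held in all of them.

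**Figure D4:**
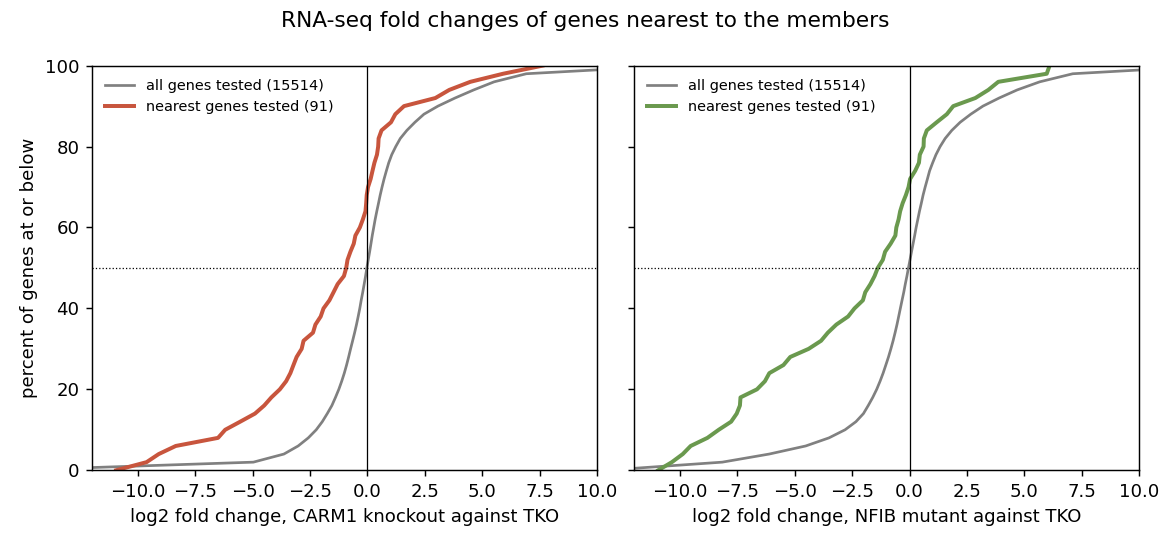
Cumulative percent of genes (vertical axis) by RNA-seq log2 fold change against TKO, for the 91 nearest genes tested and all 15514 genes tested, with CARM1 knockout on the left and NFIB mutant on the right. Both coloured lines cross 50% below 0, at -0.93 and -1.39, while the grey lines of all genes cross it at -0.03 and -0.05.

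The fall was present at different distances but was not the same at all of them. Of 37 nearest genes tested whose closest member lay between 10000 and 100000 bp away, 14 were called lower in CARM1 knockout (37.8%) and 21 in the NFIB mutant (56.8%), with 2 and 1 called higher. Of 51 with the closest member beyond 100000 bp, 17 (33.3%) and 20 (39.2%) were called lower and 10 (19.6%) were called higher in each mutant. Over all genes tested the shares were 18.3 and 23.5% lower and 20.5 and 22.3% higher. Nearest genes that held a member within their body were called lower in 15 of 33 cases in CARM1 knockout (45.5%) and in 23 of 33 in NFIB mutant tumors (69.7%). For nearest genes with no member in their body the counts were 17 of 58 (29.3%) and 21 of 58 (36.2%). Nearest genes of other distal peaks open in TKO were called lower in 19 and 26.8% of 4048 cases, and those of peaks opened in both mutants in 6.55 and 9.45% of 656. The difference between these sets was not tested.

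The 4 nearest genes within 10000 bp of a member were Myt1l, Pde1c, Cdca7l and Ccdc172, the last of which was not tested. They are named because there are so few of them. All 3 that were tested were called lower in NFIB mutant tumors, beside 23.5% of all genes. In CARM1 knockout tumors 1 of the 3, Myt1l, was called lower, beside 18.3% of all genes. That call was lost in 8 of the 9 fits that left out 1 library. Pde1c, which encodes a phosphodiesterase that breaks down cyclic nucleotides, had 37.4, 124 and 58.8 CPM in TKO and 0.407, 0.117 and 24.1 CPM in CARM1 knockout libraries, with 0 to 0.304 CPM in NFIB mutant libraries. Cdca7l had 58.3, 46.5 and 26.2 CPM in TKO, 16.9 to 31.7 CPM in CARM1 knockout and 16.2 to 19.1 CPM in NFIB mutant libraries. CARM1 knockout library 3 was the highest mutant library in both genes, and in Cdca7l it lay above TKO library 3.

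Nrxn3 was the nearest gene of the most members, 5, and encodes a neurexin, a presynaptic adhesion receptor. Its RNA had 7.69, 9.45 and 23.6 CPM in TKO and no count in any of the 6 mutant libraries. With 3 counts over the group as the floor, the level was at least 225-fold lower in the CARM1 knockout and at least 219-fold lower in the NFIB mutant (edgeR adjusted p = 0.00688 and 0.00547). Hs3st4, a heparan sulfate sulfotransferase with 2 members, had 1.87, 1.97 and 21.1 CPM in TKO and again no count in the mutants, at least 137-fold and 134-fold lower (edgeR adjusted p = 0.034 and 0.0293). Both genes were thus undetected at this depth in all mutant libraries, and both were highest in TKO library 3. Without that library the bounds were 142-fold and 138-fold for Nrxn3 and 31.8-fold and 31.0-fold for Hs3st4.

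Myt1l encodes a zinc finger factor that represses non-neuronal genes in neurons, and it had 3 members. Its RNA had 98.8, 98.7 and 99.0 CPM in TKO, 0, 0 and 12.3 CPM in CARM1 knockout and 0.304, 0 and 0 CPM in NFIB mutant libraries. The log2 fold change was -4.58 ± 1.92 (approximate SE) in CARM1 knockout (edgeR adjusted p = 0.0959) and -9.82 ± 2.56 in NFIB mutant tumors (0.0182, the same test). Here and below, the value after ± is the size of the log2 fold change divided by the square root of the F statistic of the test. The CARM1 knockout call was lost in 8 of the 9 fits that left out 1 library, the exception being the fit without CARM1 knockout library 3. Robo1, a receptor of the Slit guidance cues with 3 members, had 83.7, 191 and 65.2 CPM in TKO, 44.9, 11.3 and 55.8 CPM in CARM1 knockout and 24.2, 2.96 and 10.1 CPM in NFIB mutant libraries. It was called lower in NFIB mutant tumors, at -3.19 ± 0.89 (edgeR adjusted p = 0.0236), and did not pass the test in CARM1 knockout tumors, at -1.60 ± 0.84 (0.166).

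Apba2, with 2 members, had 99.5, 84.8 and 78.6 CPM in TKO, 0, 0 and 4.55 CPM in CARM1 knockout and 1.28, 0.247 and 0 CPM in NFIB mutant libraries. Its log2 fold changes were -5.83 ± 1.91 and -7.40 ± 2.08 (edgeR adjusted p = 0.047 and 0.0238). Ntm, a cell adhesion protein of neurons with 2 members, had 2.4, 1.27 and 4.3 CPM in TKO and 0, 16.1 and 0.843 CPM in CARM1 knockout libraries. Its CARM1 knockout libraries thus fell on both sides of TKO (log2 fold change 1.09 ± 1.64), and it was called lower only in NFIB mutant tumors, where a total of 1 count remained. That call was lost in each of the 3 fits that left out an NFIB mutant library. Nox3 and Gm10192, each nearest to 2 members, had too few counts to be tested. Nox3 had 1 count in TKO library 3, 5 in CARM1 knockout library 1, 15 in CARM1 knockout library 3 and none elsewhere, and Gm10192 had none in any library.

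The 10 largest falls among well expressed nearest genes were named, Myt1l and Apba2 among them. They were taken from genes called in both mutants with at least 5 log2 CPM in the higher genotype, which leaves out genes at lower levels such as Nrxn3 and Hs3st4. The largest of them was Rtn1, a reticulon of the endoplasmic reticulum of neurons and neuroendocrine cells. Rtn1 held 2 members in its body, and the one nearest to its start lay in an intron at chr12:72389276-72390313. It had 263, 147 and 237 CPM in TKO, 0.136, 0.117 and 0.618 CPM in CARM1 knockout and 0.425, 0.0617 and 0.127 CPM in NFIB mutant libraries. Its log2 fold changes were -9.47 ± 0.80 and -9.99 ± 0.83 (edgeR adjusted p = 0.000447 and 0.000323). CARM1 knockout library 3, which kept other neuroendocrine genes, was as low in Rtn1 as the rest of the mutants to within 1 CPM. Rbfox1, a splicing factor of neurons with 2 members in its introns, had 33.5, 61.1 and 44.0 CPM in TKO and 0 to 0.486 CPM in all mutant libraries (edgeR adjusted p = 0.00292 and 0.00308).

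Pcsk2 encodes a convertase that cuts prohormones in neuroendocrine cells, and its RNA had 44.5, 16.4 and 130 CPM in TKO, 0, 0 and 6.41 CPM in CARM1 knockout and 0 to 0.304 CPM in NFIB mutant libraries. Its CARM1 knockout call (edgeR adjusted p = 0.0927) was lost in 8 of the 9 fits that left out 1 library, all but the one without CARM1 knockout library 3. Shisa2, which restrains WNT and FGF receptors, had 24.3, 43.8 and 57 CPM in TKO, 0.271, 5.19 and 1.18 CPM in CARM1 knockout and 0 to 0.365 CPM in NFIB mutant libraries. Vash1, which encodes an enzyme that removes the last tyrosine of tubulin, had 42.4 to 59.0 CPM in TKO, 1.22 to 8.31 CPM in CARM1 knockout and 0.508 to 1.79 CPM in NFIB mutant libraries. In each of these 3 genes, as the rule for naming them required, all 6 mutant libraries lay below all TKO libraries.

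A further 3 genes of this group kept some RNA in the mutants. Zfp704, which encodes a zinc finger protein, had 168 to 294 CPM in TKO, 13.4 to 53.5 CPM in CARM1 knockout and 14.1 to 36.0 CPM in NFIB mutant libraries, which is 7.37-fold and 9.14-fold lower in the fit (edgeR adjusted p = 0.00903 and 0.00518). Thsd7a, which encodes a membrane protein with thrombospondin repeats, was 11.5-fold and 5.28-fold lower, from 92.7 to 190 CPM in TKO to between 5.89 and 42.6 CPM in the mutants. Fry, which encodes a microtubule-binding protein, had 37.2 to 65.1 CPM in TKO, 1.42, 4.37 and 22.9 CPM in CARM1 knockout and 1.72 to 6.69 CPM in NFIB mutant libraries. The CARM1 knockout call of Fry (edgeR adjusted p = 0.0856) was lost in 7 of the 9 fits, each leaving out TKO library 1, 2 or 3, CARM1 knockout library 1 or 2, or NFIB mutant library 1 or 2.

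**Figure D5:**
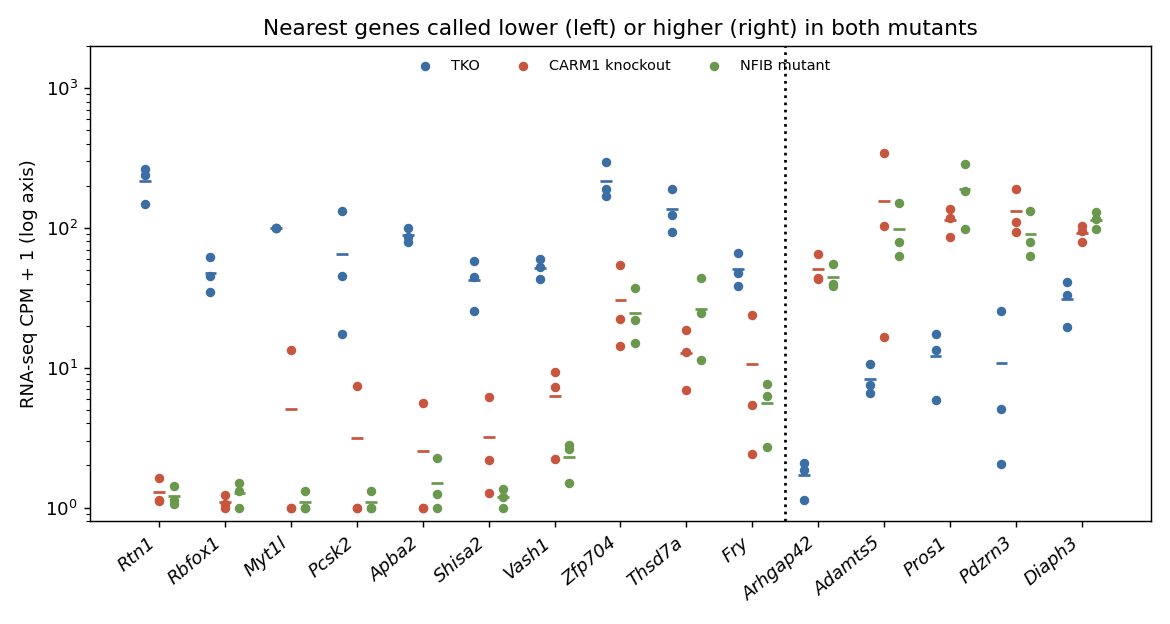
RNA-seq CPM plus 1 (log axis) of 10 nearest genes called lower and 5 called higher in both mutants, 1 point per library and short bars for the mean of each genotype. The 10 genes on the left have every mutant library below every TKO library, and CARM1 knockout library 3 is the highest CARM1 knockout point in Myt1l at 12.3 CPM and in Pcsk2 at 6.41 CPM.

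Not all genes next to a closed region fell. The 5 largest rises under the same rule were named as well, which leaves out Mgst2 and Lrmda for their low levels. Arhgap42, which encodes a GTPase-activating protein, had 0.865, 1.09 and 0.133 CPM in TKO, 41.8 to 63.9 CPM in CARM1 knockout and 37.1 to 54.4 CPM in NFIB mutant libraries, a log2 fold change of 6.14 ± 0.70 and 5.95 ± 0.69 (edgeR adjusted p = 0.00115 and 0.000972). Its member lay 659847 bp away. Adamts5, a protease of cartilage matrix, had 5.64 to 9.61 CPM in TKO, 15.6 to 344 CPM in CARM1 knockout and 62.3 to 149 CPM in NFIB mutant libraries. Pros1, which encodes the anticoagulant protein S, had 4.83 to 16.5 CPM in TKO and 85.4 to 283 CPM in the mutants. Pdzrn3, an E3 ubiquitin ligase gene, had 1.05 to 24.5 CPM in TKO and 62.2 to 189 CPM in the mutants, and its NFIB mutant call was lost without TKO library 1. Diaph3, a formin that builds actin filaments, was 3.02-fold and 3.75-fold higher (edgeR adjusted p = 0.0054 and 0.00221).

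The other named rises had their members at 237089 bp for Pros1, 504802 bp for Pdzrn3, 692233 bp for Diaph3 and 701999 bp for Adamts5. March3, also called higher in both mutants, held its member in its body, 15521 bp from its start, and is named here after its values were seen. Its NFIB mutant call was lost in 4 of the 9 fits that left out 1 library, and its CARM1 knockout call in 1. The same mutant libraries held 9479 to 25790 CPM of fibroblast markers, and the part of those cells in the rises was not tested.

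The genes next to the 10 most accessible members went in different directions. Nrxn3 and Sv2c were called lower in both mutants. Sv2c, a glycoprotein of synaptic vesicles, had 9.95, 39.4 and 7.36 CPM in TKO and at most 1.24 CPM in the mutants (edgeR adjusted p = 0.0607 and 0.0397), a call lost in CARM1 knockout without CARM1 knockout library 1 or 2 or TKO library 2 and in NFIB mutant without NFIB mutant library 2 or TKO library 2. Plxna4, a coreceptor for semaphorins, had 71.5, 36.2 and 24.3 CPM in TKO, 4.54 to 13.7 CPM in CARM1 knockout and 3.18 to 30.8 CPM in NFIB mutant libraries. It was called lower in CARM1 knockout tumors only (edgeR adjusted p = 0.0571 and 0.186), and the difference between the mutants did not pass the test. The CARM1 knockout call was lost in 3 of the 9 fits that left out 1 library. Dhx35 was 1.93-fold lower in CARM1 knockout (edgeR adjusted p = 0.0171) and 1.53-fold lower in NFIB mutant tumors, under the size limit. Its CARM1 knockout call was lost without TKO library 1.

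Pdzrn3, Btg1 and Pcdh18 were called higher in both mutants. Btg1, which restrains cell division, had 72.1 to 97.6 CPM in TKO, 236, 228 and 112 CPM in CARM1 knockout and 283, 274 and 112 CPM in NFIB mutant libraries (edgeR adjusted p = 0.0607 and 0.0301). Its CARM1 knockout call was lost in 4 of the 9 fits that left out 1 library. Pcdh18, a protocadherin, had 9.51 to 19.7 CPM in TKO and 26.6 to 59.6 CPM in the mutants (edgeR adjusted p = 0.0146 and 0.0387). Pik3c3, the lipid kinase of autophagy whose start lay 1761618 bp from its member, had 40.6 to 49.3 CPM in TKO and 31.1 to 61.5 CPM in the mutants. Tmtc2 had 57.4, 44.5 and 12.8 CPM in TKO and 2.65 to 22.3 CPM in the mutants, where the groups overlapped and no call was made. Neither was called in a mutant.

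Lists of neural and other genes were written from general knowledge. They are short beside the 21951 annotated protein-coding genes and not complete, with Rbfox1 and Sv2c in none of them. Whether the overlap with the 111 nearest genes exceeds that of other genes was not tested. One nearest gene, Myt1l, was among the 61 neuronal fate transcription factors, 1, Nrxn3, among the 54 synapse and ion channel genes, and 3, Robo1, Ntm and Plxna4, among the 72 axon guidance and neural adhesion genes. None was a neuroendocrine, fibroblast, leukocyte, endothelium or lung epithelium marker. Of the tested members of these lists, 15 of 34 neuronal fate factors, 20 of 46 synapse and channel genes and 20 of 58 guidance and adhesion genes were called lower in CARM1 knockout tumors, which is 44.1, 43.5 and 34.5%, beside 18.3% of all genes tested. In NFIB mutant tumors the counts were 22, 38 and 32, beside 23.5% of all genes tested. Called higher were 2, 1 and 9 in each mutant (5.88, 2.17 and 15.5%), beside 20.5 and 22.3% of all genes tested. Of the 14 neuroendocrine markers 2 (14.3%) were called lower in the CARM1 knockout and 13 in the NFIB mutant, and none was called higher.

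Members within the body of a gene were not always nearest to the start of that gene. Of 64 members inside a protein-coding gene, 42 lay in the gene that was also the nearest, and 54 genes held a member in all. Of these, 51 were tested, with 21 called lower in CARM1 knockout (41.2%) and 34 in the NFIB mutant (66.7%), and 3 called higher in each. The shares of all genes tested were 18.3 and 23.5% lower and 20.5 and 22.3% higher. Looking at these genes was decided after the positions of the members had been seen.

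The mutants were compared with each other directly as well. None of the 91 nearest genes was called between CARM1 knockout and NFIB mutant tumors by edgeR, in either direction, as with 0% of all genes tested. At an unadjusted p under 0.05 there were 13 (14.3%) of the nearest genes and 9.11% of all genes. Of the 13, 11 had more RNA in CARM1 knockout tumors, as had 821 of the 1414 among all genes. The difference between these shares was not tested. DESeq2 called 7 of 106 nearest genes (6.6%), against 1.97% of all genes it tested, namely Phyhipl, Shisa2, Cavin4, Pde1c and Ntm with more RNA in CARM1 knockout tumors and Gm4737 and Mgst2 with less. These 7 were named after their values were seen. Of these, Phyhipl and Pde1c were highest in library 3 among the CARM1 knockout libraries, and Ntm, Cavin4 and Shisa2 in library 2. Of the 91 nearest genes, CARM1 knockout library 3 had 20 at under 20% of the lowest TKO library, whereas the other mutant libraries had 31 to 36. This count was not made over all genes. Without CARM1 knockout library 3, 40 of 92 nearest genes tested (43.5%) were called lower in CARM1 knockout tumors in place of 32 of 91 (35.2%). The share of all genes called lower rose as well, from 18.3 to 19.8%.

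Nearest genes were also split by the NFI single site. Of the 43 tested genes with a member that held the site, 10 were called lower in CARM1 knockout (23.3%) and 21 in the NFIB mutant (48.8%). Among the 48 without one, the counts were 22 (45.8%) and 23 (47.9%). Of all genes tested, 18.3 and 23.5% were called lower. The difference between genes with and without the site was not tested.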

How the data were processed

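RNA-seq and ATAC-seq libraries of sorted TKO, CARM1 knockout and NFIB mutant lung tumor cells were used, 3 of each. Column names starting with C were read as TKO (control), with KO as CARM1 knockout and with N as NFIB mutant, following the group names used in the study. The authors deposited unnormalized counts for both assays. RNA-seq reads were mapped to mm10 with HISAT2 and counted with HTSeq. ATAC-seq reads were mapped to mm10 with Bowtie2, freed of duplicates with Picard, and counted on 1 common peak set with featureCounts 1.6.3, per the file header. The methods name MACS2 and a filter on copy number altered regions, and the submitters' notes name Genrich.

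CPM for ATAC-seq used column sums, with no correction for copy number. Gene starts came from GENCODE M21 (GRCm38). Nearest genes are those whose start lies nearest to an edge of the peak. RNA-seq counts were tested with edgeR 4.0.16 (TMM, filterByExpr, robust quasi-likelihood, Benjamini-Hochberg) in R 4.3.3, in 1 model of 9 libraries over 15514 genes, without the 5 summary entries of the table. Reads assigned to no gene were 3.65 to 12.22% of a library. RNA-seq CPM were scaled with TMM factors. The alternatives were other scalings, filters, tests, gene assignments and left-out libraries, and DESeq2 1.42.0. Fits were tested on simulated data.

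Named were the 10 most accessible members, the 8 nearest genes with the most members, the 10 largest falls and 5 largest rises called in both mutants without overlap of libraries and with at least 5 log2 CPM, and nearest genes in 9 lists. The members and lists were chosen with earlier results of these data known. P-values measure the spread between 3 animals per genotype. A marker gene and the sequence of 1 region are not reported here.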

Additional observations from a re-analysis of the deposited data

How the results depend on the processing

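The number of members depended on the limits and on single libraries. It was 316 with TMM-scaled CPM, 18 with at least 8 CPM in TKO and 4 with under 0.25 CPM in the mutants. It ranged from 135 to 602 when 1 library was left out, with 200 without TKO library 1, 602 without TKO library 3 and 255 without CARM1 knockout library 3.

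Counts of nearest genes are given for CARM1 knockout, then NFIB mutant. With at least 10 counts required in every library, 11 and 12 were called lower and 7 higher in NFIB mutant, with medians of -0.10 and -0.25. That filter removes genes that fell to 0 and leaves 50 to test, of which 22.0 and 24.0% were lower against 18.9 and 20.8% of all genes. With the nearest gene of any biotype, 26 of 118 genes were tested. Of these, 9 and 17 were lower, which is 34.6 and 65.4% against 18.3 and 23.5% of all genes. In this setting 0 and 0 were higher, with medians of -2.62 and -5.19. Among 63 tested protein-coding genes with a start within 100000 bp, 20 and 32 were lower (31.7 and 50.8%). Of the same genes 6 and 5 were higher, and the NFIB mutant median was -1.10. Genes that held a member, chosen after seeing the data, gave 21 and 34 lower of 51 tested, 3 and 3 higher, and medians of -2.07 and -3.74. Scaling by library totals gave 7 higher in NFIB mutant and a median of -1.71, and moved the medians of all genes to -0.30 and -0.37. DESeq2 called 7 nearest genes between the mutants. Leaving out 1 library gave 23 to 40 and 35 to 46 lower, 8 to 12 and 8 to 13 higher, medians of -1.33 to -0.85 and of -1.62 to -1.22, and 0 between the mutants. In a 200 bp window the NFI single site was in 31.7% of members and 17.1% of other distal peaks open in TKO, and in a 500 bp window in 48.4 and 34.9%.

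Replicate numbers did not pair the libraries, since same-numbered libraries had correlations of -0.297 to 0.118. With the replicate block, 29 and 43 were lower (31.9 and 47.3%), against 16.2 and 21.1% of all genes. In that fit 11 and 9 were higher and 0 differed between the mutants, with medians of -1.17 and -1.50. Of 866 alternative values for 28 named genes, 801 kept direction and call, 51 lost the call, 10 gained it and 4 changed sign. The log2 fold change of Ntm in CARM1 knockout was -1.795 with the replicate block and between -2.61 and 1.68 with 1 library left out, the lowest without CARM1 knockout library 2. That of Pik3c3 in NFIB mutant was -0.18 with library totals and between -0.013 and 0.27 with 1 library left out, the lowest without NFIB mutant library 2. The cause was not tested. Members had a median of 8 to 10 reads per mutant library, which limits what can be said of the residual signal of a single region. Fitted fold changes of genes near 0 depend on the prior count.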
